A study of Homo sapiens with 5 samples.

Results

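hsa-miR-221 and hsa-miR-222 are related human microRNAs made from neighbouring hairpins on the X chromosome. They were taken by exact probe name from a panel of 734 microRNA probes, of which these are 2. The panel was read in Caco2 cells, an epithelial line from a human colorectal tumour whose cells polarise and join into sheets. The cells carried either an shRNA against PLEKHA7 (shPLEKHA7, replicates 1, 2 and 3), a protein of the adherens junction, or a non-target shRNA (NT, replicates 1 and 3), and all had been infected with their shRNA and selected. The comparison asks how PLEKHA7 depletion affects microRNA levels. RNA was counted on the NanoString nCounter system, in which a coloured barcode bound to each target is counted without amplification. The titles gave the groups, and the source fields of shPLEKHA7 replicates 2 and 3 name another PLEKHA number, which was not followed. The labels name no second shRNA against PLEKHA7, no clone and no time after infection, and no PLEKHA7 probe was analysed here, so the depletion itself was not checked.

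A microRNA represses the messenger RNAs that pair with its seed, the stretch of bases near its 5′ end, so microRNAs with the same seed share most of their targets. miR-221 and miR-222 are known to repress CDKN1B (p27) and CDKN1C (p57), which inhibit the kinases that drive the cell cycle, and the receptor KIT. They are abundant in endothelium, are raised in many epithelial tumours, and in breast epithelial cells promote the change to a mesenchymal state.

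Both mature sequences are shown, from RefSeq (GRCh38.p14), because the shared seed is what makes them a pair. Capitals mark the seed, bases 2 to 8, and each probe's target in the deposited table was this sequence with T for U.
hsa-miR-221-3p: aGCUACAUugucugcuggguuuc
hsa-miR-222-3p: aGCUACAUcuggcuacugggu
The first 8 bases are the same, and 11 of the first 21 match position by position. A second shared run, CUGGGU, starts at base 15 of miR-221 and at base 16 of miR-222. Of 2370 human mature microRNA names in RefSeq, 2 have this seed, and of the 734 human and viral probes of the panel 2 target it.

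The hairpins from which they are cut show where the mature strands lie, in capitals.
MIR221: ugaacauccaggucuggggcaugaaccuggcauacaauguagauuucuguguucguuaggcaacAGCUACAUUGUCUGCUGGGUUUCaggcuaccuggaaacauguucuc
MIR222: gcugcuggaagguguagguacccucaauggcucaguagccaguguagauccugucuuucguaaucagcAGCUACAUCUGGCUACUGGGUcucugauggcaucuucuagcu
Both mature strands come from the 3′ arm. MIR221 lies at chrX:45746157-45746266 and MIR222 at chrX:45747015-45747124 of GRCh38.p14, both on the minus strand. They are 748 bases apart with 0 other genes between them, and both lie inside the span of the minus-strand long non-coding RNA gene MIR222HG. A single primary transcript is known to carry both hairpins.

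Total microRNA counts ran from 32138 to 58298 in the shPLEKHA7 lanes, against 34942 and 50372 in the NT lanes. The detection limit, the mean plus 2 SD of a lane's 8 negative-control probes, ran from 11.003 to 24.5 counts over the 5 lanes. Probes above it in at least 2 samples were tested, which kept 204. Positive-control spike-ins, which enter each lane in a set amount, were counted 10670 to 14239 times in the shPLEKHA7 lanes and 7686 and 10656 times in the NT lanes. The last number in each deposited column name, if it is the place of the lane, is lower for both NT samples than for any shPLEKHA7 sample, so place and group cannot be told apart. As a check of the cell type, 5 of 5 epithelial markers (the miR-200 family) and 3 of 3 intestinal ones (miR-192, miR-194 and miR-215) were tested. Their summed normalized counts were 1431 to 1515 in shPLEKHA7 cells, against 1639 to 1684 in NT cells, for the epithelial markers, and 503 to 736 in shPLEKHA7 cells, against 542 to 575 in NT cells, for the intestinal ones. Of the intestinal markers miR-215 was higher, at 34.6 ± 9.36 normalized counts in shPLEKHA7 cells (SD, n = 3) and 15.0 ± 1.44 in NT cells (SD, n = 2). It was below the detection limit in both NT lanes, so it entered the tested set only through the shPLEKHA7 lanes. Its edgeR adjusted p of 0.048 is therefore not separate support for a difference. miR-192 was at a log2 fold change of -0.01. Of the 5 stromal probes 2 were tested, and all 5 summed to 79.3 to 86.9 in shPLEKHA7 and 59.2 to 67.2 in NT cells. Of these 2, miR-214 had 38.0 ± 13.8 normalized counts in shPLEKHA7 cells (SD, n = 3) and 21.3 ± 3.17 in NT cells (SD, n = 2). Its log2 fold change was 0.84 (SE 0.34, edgeR adjusted p = 0.162), and that of miR-145 was 0.07 (SE 0.41). Of the 6 blood probes 3 were tested, and all 6 summed to 117.9 to 143.2 in shPLEKHA7 and 124.2 to 126.9 in NT cells. Both sums thus include the untested probes, which were above the detection limit in no sample. The endothelial marker miR-126, of interest because the pair is abundant in endothelium, was above the limit in all 5 samples at 23.4 to 51.1 normalized counts in shPLEKHA7 and 47.0 to 57.0 in NT cells. Its log2 fold change was -0.52 (SE 0.30, edgeR adjusted p = 0.298). Whether markers that differ between the groups have a part in the values of the pair was not tested. The samples were bulk RNA of the cultured Caco2 line, in which fewer cells with a microRNA and less of it per cell cannot be told apart.

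miR-221, the more strongly counted of the pair, was slightly lower in every shPLEKHA7 sample than in either NT sample, but the difference did not pass the test. The raw counts of hsa-miR-221 were 244, 177 and 312 in shPLEKHA7 replicates 1, 2 and 3, against 224 and 283 in NT replicates 1 and 3. These were 9.98 to 16.1 times the detection limit of their lanes in shPLEKHA7 and 13.7 and 16.7 times in NT, so its level was measured well above background throughout. After TMM scaling, which sets the lanes level on the bulk of the tested probes, the counts were 222.5, 243.2 and 235.9 in shPLEKHA7 replicates 1, 2 and 3, and 283.9 and 266.0 in NT replicates 1 and 3. The groups did not overlap on this scale. The means were 234 ± 10.5 in shPLEKHA7 cells (SD, n = 3) and 275 ± 12.6 in NT cells (SD, n = 2), a log2 fold change of -0.23 (SE 0.13). By the edgeR quasi-likelihood test across all tested probes the adjusted p was 0.284 and the unadjusted p 0.102. The 95% interval of the fold ran from 0.696 to 1.04, which includes no change.

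miR-222, which has the same seed and fewer counts, showed no separation of the groups. The raw counts of hsa-miR-222 were 60, 44 and 46 in shPLEKHA7 replicates 1, 2 and 3, against 46 and 47 in NT replicates 1 and 3. They were 2.28 to 3.999 times the detection limit of their lanes in shPLEKHA7 and 2.28 and 3.43 times in NT. TMM-normalized counts were 54.7, 60.4 and 34.8 in shPLEKHA7 replicates 1, 2 and 3, and 58.3 and 44.2 in NT replicates 1 and 3. The shPLEKHA7 samples held both the highest and the lowest value, and in each group the sample numbered 3 was the lowest. The means were 50.0 ± 13.5 in shPLEKHA7 cells (SD, n = 3) and 51.2 ± 9.99 in NT cells (SD, n = 2). The log2 fold change was -0.06 (SE 0.27, edgeR adjusted p = 0.935), turning to 0.04 when lanes were scaled by total counts. Without shPLEKHA7 replicate 3 it was 0.18 and without NT replicate 1 it was 0.14, so it had no settled sign. The 95% interval of the fold, 0.636 to 1.46, was wider than that of miR-221.

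**Figure D1:**
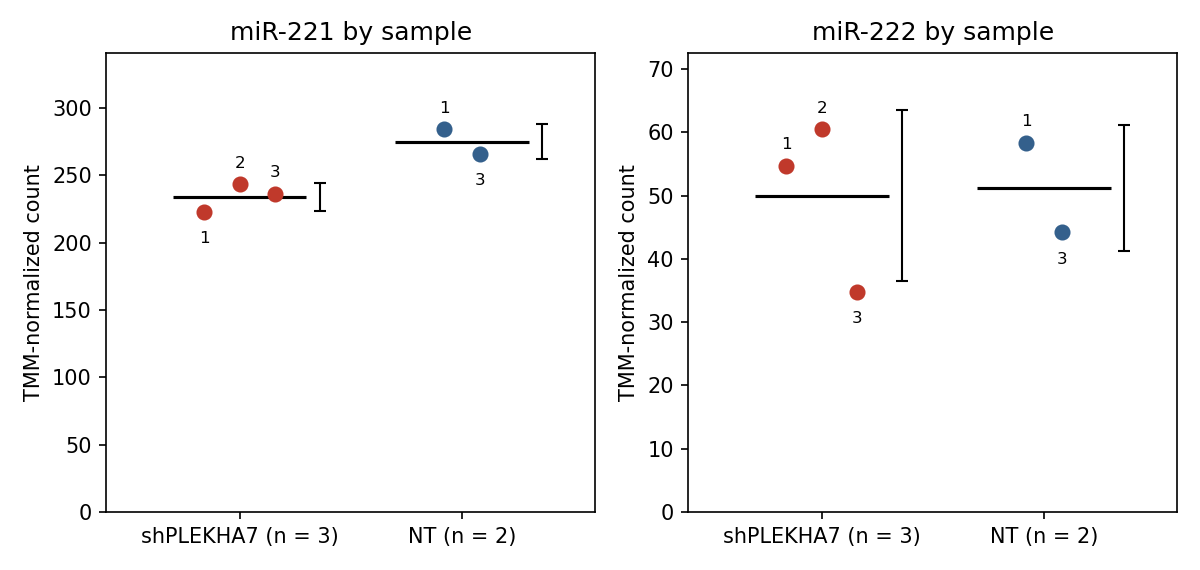
TMM-normalized counts (vertical axis, from 0) of miR-221 (left) and miR-222 (right) by sample, with points numbered by replicate, lines at the group means and bars of ± SD beside them. The shPLEKHA7 samples lie at 222.5 to 243.2 for miR-221, below both NT samples, while for miR-222 they span 34.8 to 60.4 and enclose both NT samples.

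In all, 0 of the 2 microRNAs were called at an adjusted p under 0.05 by edgeR. Of the 204 tested probes 6.37% were called in either direction and 3.92% were called lower. At an unadjusted p under 0.05 there were 0 of the 2, against 48 of the 204. DESeq2 and limma on the deposited values also called 0 of the 2, with 0 unadjusted. Over the panel DESeq2 called 11 of 204 probes, with 38 unadjusted. For limma it was 7 of 189 with either pseudocount, with 31 (pseudocount 1) and 33 (pseudocount 10) unadjusted. The non-overlap of miR-221 was a common feature of the panel: in 48.0% of the tested probes the groups did not overlap, and in 22.1% they did so with shPLEKHA7 lower. Of the tested probes 23.0% had a log2 fold change below that of miR-221 and 39.7% one below that of miR-222. The median over all tested probes was 0.06, and relative to it miR-221 stood at -0.29 and miR-222 at -0.11.

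**Figure D2:**
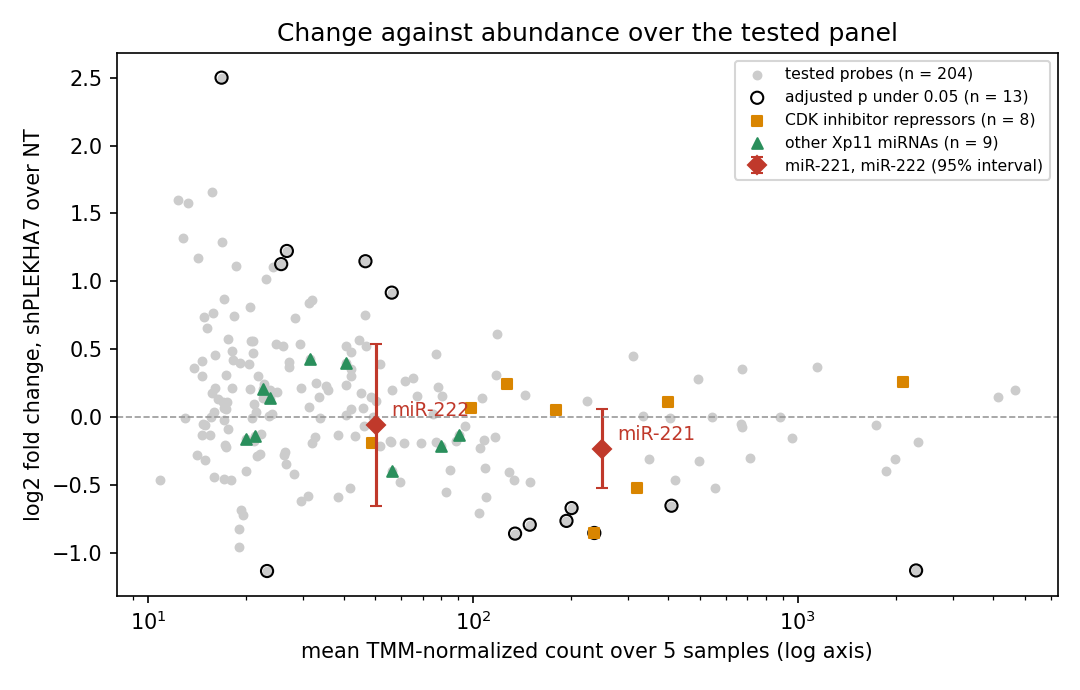
Log2 fold change of shPLEKHA7 over NT against the mean TMM-normalized count (log axis) of the 204 tested probes. Circles mark the 13 probes called, squares and triangles the microRNAs known to repress CDK inhibitors and those of band Xp11, and diamonds with 95% intervals miR-221 and miR-222, whose intervals both include 0.

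The replicates of miR-221 lay closer together than those of miR-222. Within groups the log2 values of miR-221 had a pooled SD of 0.07, and 200 of the 204 tested probes had a larger one. Counting alone would give miR-221 an SD of about 0.09 at these counts, which is more than was seen. For miR-222 the pooled SD was 0.38, against about 0.21 from counting alone and a median of 0.27 over tested probes. Counting error on the summed counts (150 in shPLEKHA7, 93 in NT) was 0.19 on the log2 scale for the group difference of miR-222, and for miR-221 (733 and 507) it was 0.08. Intervals from counting cover that error only.

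How lanes were scaled moved the level of miR-221 more than its place in the panel. In the deposited normalized signal, where each lane is multiplied by 1 factor, miR-221 had 228.3, 200.9 and 280.4 in shPLEKHA7 replicates 1, 2 and 3, against 274.5 and 307.6 in NT replicates 1 and 3. Here the groups overlapped, because shPLEKHA7 replicate 3 lay above NT replicate 1, and the log2 fold change was -0.30 (SE 0.32, edgeR adjusted p = 0.786). Per 100 spike-in counts there were 1.74, 1.66 and 2.19 miR-221 counts in shPLEKHA7 replicates 1, 2 and 3, and 2.91 and 2.66 in NT replicates 1 and 3. That scaling gave the lowest value of the alternatives, a log2 fold change of -0.58 (SE 0.27, adjusted p = 0.16), at an unadjusted p of 0.0345. Under it 53 of the 204 tested probes had an unadjusted p under 0.05, and at an adjusted p 29 were called lower and 4 higher. The same scaling also lowered miR-222, at 0.428, 0.412 and 0.323 counts per 100 spike-in counts in shPLEKHA7 replicates 1, 2 and 3 and 0.598 and 0.441 in NT replicates 1 and 3, to a log2 fold change of -0.41 (SE 0.28, adjusted p = 0.359). Spike-in scaling moved the median of all tested probes to -0.27, and relative to that median miR-221 was at -0.30 and miR-222 at -0.14, close to their places under TMM. As a share of the lane's microRNA count miR-221 made up 0.509%, 0.551% and 0.535% in shPLEKHA7 replicates 1, 2 and 3, against 0.641% and 0.562% in NT replicates 1 and 3. Among the 654 human probes it ranked 28th or 29th by count in every shPLEKHA7 lane and 29th and 30th in the NT lanes, whereas miR-222 ranked from 66th to 96th in the shPLEKHA7 lanes and at 70th and 75th in the NT lanes.

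**Figure D3:**
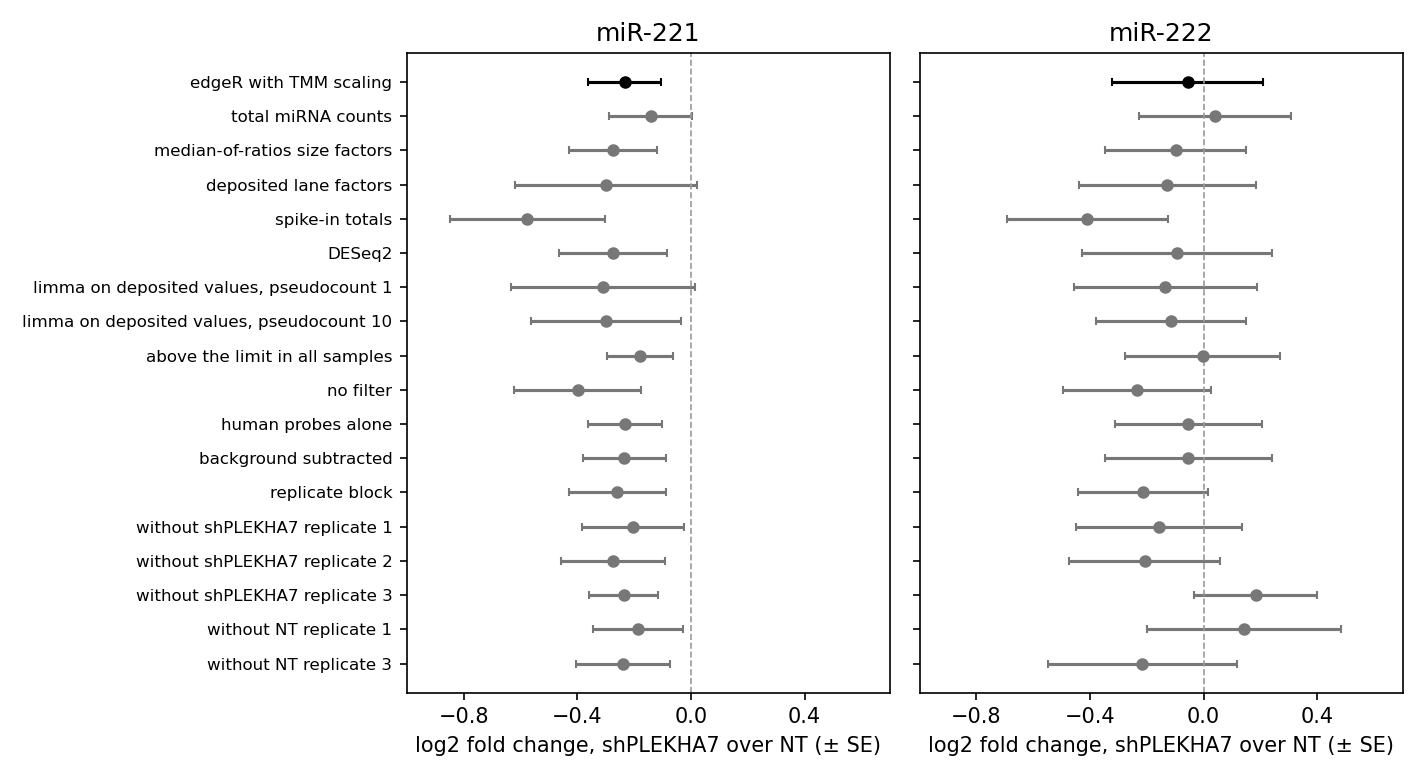
Log2 fold change of shPLEKHA7 over NT (horizontal axis, bars of ± SE) for miR-221 (left) and miR-222 (right) under the edgeR fit with TMM scaling (black) and each alternative (grey). miR-221 stays below 0 throughout, from -0.58 to -0.14, while miR-222 runs from -0.41 to 0.18.

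The ratio of miR-221 to miR-222 within a lane does not depend on how lanes are scaled, so it bears on whether the pair moved apart. The ratio of raw counts was 4.07, 4.02 and 6.78 in shPLEKHA7 replicates 1, 2 and 3, against 4.87 and 6.02 in NT replicates 1 and 3. The shPLEKHA7 samples held the highest and both of the lowest ratios, and in both groups the ratio was highest in the sample numbered 3. As a share of the pair's counts miR-221 made up 80.3% (Clopper-Pearson 95% interval 75.3% to 84.6%), 80.1% (74.2% to 85.1%) and 87.2% (83.2% to 90.4%) in shPLEKHA7 replicates 1, 2 and 3. In NT replicates 1 and 3 it made up 83.0% (77.9% to 87.2%) and 85.8% (81.5% to 89.3%). The mean log2 ratio was 2.26 ± 0.43 in shPLEKHA7 cells (SD, n = 3) and 2.44 ± 0.22 in NT cells (SD, n = 2). The difference of -0.17 (SE 0.29) was smaller than the spread between replicates, with a 2-sided exact permutation p of 0.6 over 10 splits, the smallest possible being 0.1. The change of miR-221 is therefore not shown to differ from that of miR-222. Probes bind with different efficiency, so the ratio is not a ratio of molecules.

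**Figure D4:**
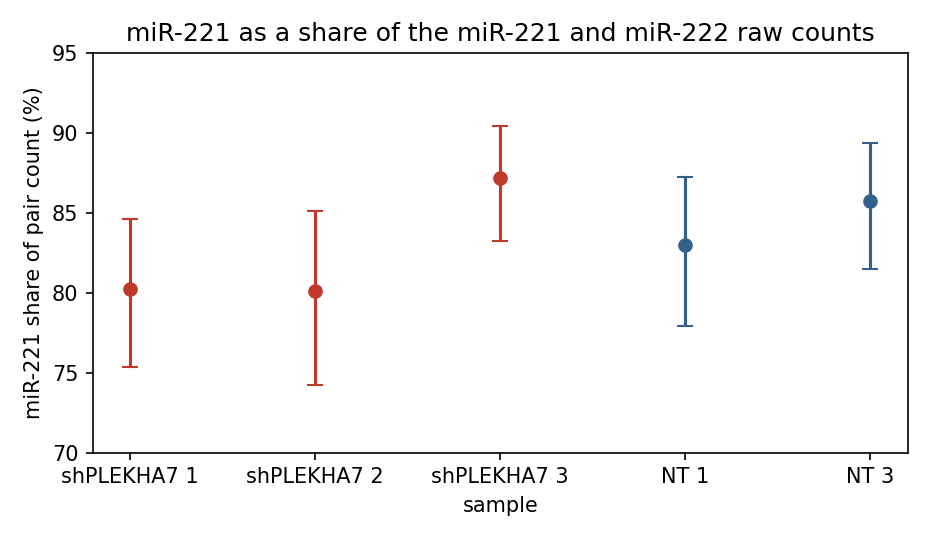
miR-221 as a percentage of the summed raw counts of miR-221 and miR-222 (vertical axis, cut to 70% to 95%) in each sample, with Clopper-Pearson 95% intervals for counting error. The shPLEKHA7 samples run from 80.1% to 87.2% and enclose the NT samples at 83.0% and 85.8%.

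Across the 5 samples the counts of the pair did not follow each other closely. Counting alone would give log2 SDs of about 0.21 for miR-222 and 0.09 for miR-221, and its part in this was not tested. After subtracting each probe's own mean log2 value, the root-mean-square difference between miR-221 and miR-222 was 0.30, where the median difference of a tested probe from miR-221 was 0.31 and from miR-222 0.40. Of the 203 probes ranked, 91 lay closer to miR-221 than miR-222 did, and 43 lay closer to miR-222 than miR-221 did. The probes most like miR-221 over these 5 samples were miR-191 (0.06), miR-200c (0.07) and miR-15b (0.07). Those most like miR-222 were miR-181a (0.05), miR-539 (0.12) and miR-626 (0.12). For each member these distances are below its own counting SD, so the order of neighbours carries little meaning for either. miR-539 had means of 17.2 normalized counts in shPLEKHA7 and 16.9 in NT cells, and miR-626 of 23.9 and 23.0, both near the detection limit. These are descriptions of 5 lanes in 2 groups.

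Other microRNAs known to repress CDK inhibitors were counted on 8 probes, all 8 tested, of which 1 fell and 0 rose, where 3.92% of all tested probes were called lower. Their median log2 fold change was 0.06, the same as that of all tested probes, and ran from -0.28 under spike-in scaling to 0.21 without NT replicate 1. The fall was in miR-24, which represses CDKN2A (p16), at 179 ± 12.5 normalized counts in shPLEKHA7 cells (SD, n = 3) and 323 ± 9.25 in NT cells (SD, n = 2). Its log2 fold change was -0.85 (SE 0.13, edgeR adjusted p = 0.0186), and its size stayed between -1.19 and -0.76 over the alternatives, although it no longer passed when NT replicate 1 (adjusted p = 0.0672) or NT replicate 3 (adjusted p = 0.0627) was left out or under the deposited scaling (adjusted p = 0.0842) or by limma with a pseudocount of 1 (adjusted p = 0.0964). miR-148a, which like the pair represses CDKN1B, had 272 ± 47.6 in shPLEKHA7 cells (SD, n = 3) and 392.4 ± 81.8 in NT cells (SD, n = 2). Its groups did not overlap, and its log2 fold change of -0.53 (SE 0.18, adjusted p = 0.119) passed under spike-in scaling (-0.84, adjusted p = 0.0217) and was -0.24 without NT replicate 3. Probes of CDKN1A (p21) repressors stood at 0.26 (SE 0.12) for miR-20a and miR-20b jointly, 0.24 (SE 0.18) for miR-93, 0.06 (SE 0.20) for miR-106a and miR-17 jointly and 0.06 (SE 0.16) for miR-106b, and under spike-in scaling these were all negative. miR-25 and miR-92b, which repress CDKN1C, stood at 0.11 (SE 0.13) and -0.19 (SE 0.28). miR-25 too was negative under spike-in scaling.

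Other microRNAs encoded in band p11 of the X chromosome, most of them in a cluster with miR-532 and miR-660, were counted on 10 probes. Of these 9 were tested, and 0 rose and 0 fell by edgeR, where 6.37% of all tested probes were called in either direction. At an unadjusted p under 0.05 there were 0 of the 9, against 48 of all 204 tested probes. DESeq2 and limma called 0 as well, with 0 unadjusted. DESeq2 gave no adjusted p for miR-188-5p, miR-98, either arm of miR-532 or the joint miR-500 and miR-501-5p probe. It could therefore not call these. Their median log2 fold change was -0.13, against 0.06 over all tested probes, and it ran from -0.45 under spike-in scaling to 0.06 without shPLEKHA7 replicate 3. miR-660 stood at a log2 fold change of -0.40 (SE 0.22, adjusted p = 0.284; -0.21 without NT replicate 3), with 49.8 ± 11.4 normalized counts in shPLEKHA7 cells (SD, n = 3) and 66.6 ± 8.16 in NT cells (SD, n = 2). For the 2 arms of miR-532 the values were 0.42 (SE 0.23, adjusted p = 0.284) for miR-532-5p and 0.40 (SE 0.20, adjusted p = 0.273) for miR-532-3p. Leaving out NT replicate 1 gave 0.23 for miR-532-5p and 0.27 for miR-532-3p, and leaving out NT replicate 3 gave 0.75 and 0.61. The groups did not overlap for these 3 of the 9 probes, against 48.0% of all tested probes. miR-362-3p and miR-362-5p stood at -0.13 (SE 0.19) and -0.21 (SE 0.19), miR-98 at 0.14 (SE 0.27), and the joint probe for miR-500 and miR-501-5p at 0.21 (SE 0.26). The last of these and miR-98 were negative under spike-in scaling. miR-188-5p was at -0.14 (SE 0.31), near the detection limit with 15 to 28 raw counts.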

How the data were processed

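The deposited raw table holds whole-number counts per probe and lane, per the file headers, and the software that exported it is not given in the sources used here. The authors' second table holds a normalized signal: multiplying a lane's raw counts by 1 factor gave 100% of its human microRNA values to within 0.1. Its 10 baseline and fold columns were not used. Groups were taken from the sample titles, and samples named as separate infections by the design text were treated as replicates.

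Raw counts of the 204 microRNA probes above the detection limit in at least 2 of 5 samples were scaled by TMM and tested by edgeR's quasi-likelihood test (version 4.0.16, in R 4.3.3) for group, with no other term, and Benjamini-Hochberg adjustment over all 204. SEs were derived as the size of the log2 fold change divided by the root of the F statistic. Alternatives were other scalings, DESeq2 1.42.0, limma 3.58.1 on log2 of the deposited signal of 189 human probes plus a pseudocount of 1 or 10, other filters, background subtraction with a floor of 1, a replicate block and leaving out each sample. Of these fits, only edgeR with TMM scaling was tested on simulated data.

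Named microRNAs were the pair, the 3 probes nearest to each by root-mean-square difference, and the tested members of 2 lists, the 8 most abundant of each. The pair and the lists were chosen with earlier results of these data known.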

Additional observations from a re-analysis of the deposited data

How the results depend on the processing

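Over the 17 alternatives the log2 fold change of miR-221 was negative in 17 and called in 0, from -0.58 to -0.14 with all samples kept and from -0.27 to -0.19 with a sample left out (adjusted p from 0.16 to 0.786). That of miR-222 was called in 0 (adjusted p from 0.359 to 0.992). It turned to 0.039 under total-count scaling, and leaving out a sample gave -0.22 to 0.18. The difference in log2 ratio kept its sign, at -0.16 after background subtraction and from -0.42 to -0.02 with a sample left out. Its size without shPLEKHA7 replicate 3, -0.42, and without NT replicate 3, -0.02, shows how far single lanes moved it. With a replicate block miR-221 was at -0.26 and miR-222 at -0.21 (adjusted p = 0.381 and 0.625), and the ratio difference at -0.04, from -0.26 between the samples numbered 1 and 0.17 between those numbered 3. No label ties a number to an infection set, so the numbers were not taken as pairs.

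The number of probes called in the panel was 13, against 20 under total-count, 6 under deposited and 33 under spike-in scaling, 7 by limma with either pseudocount, 22 with the replicate block, and 0 to 18 with a sample left out (1 without NT replicate 1, and 0 without NT replicate 3, where 34 had an unadjusted p under 0.05). A lone NT sample was assumed to vary like the others. Higher calls were 5 of 13, and 12 of 20, 4 of 6 and 4 of 33 under those scalings.

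The alternatives for single probes of the lists were added after seeing the data. Under spike-in scaling the log2 fold changes of 7 probes turned negative: miR-106a and miR-17 jointly to -0.29, miR-106b to -0.27, miR-25 to -0.23, miR-20a and miR-20b jointly to -0.083, miR-93 to -0.10, miR-98 to -0.19, and miR-500 and miR-501-5p jointly to -0.12. Spike-in scaling moved the median of all tested probes from 0.06 to -0.27. Relative to the median, miR-20a and miR-20b were at 0.19 under spike-in scaling against 0.20 under TMM. On the same footing miR-93 was at 0.18 in both, miR-25 at 0.04 against 0.05, and miR-500 and miR-501-5p at 0.15 in both. miR-98 was at 0.09 against 0.08, miR-106b at 0.006 against -0.003, and miR-106a and miR-17 at -0.01 against 0.004. Without the filter, miR-106a and miR-17 stood at -0.11, miR-106b at -0.10, miR-25 at -0.058 and miR-98 at -0.023. On the deposited values miR-106b was at -0.040 with a pseudocount of 1 and -0.036 with 10. With a sample left out the range was -0.21 to 0.41 for miR-106a and miR-17, -0.087 to 0.16 for miR-106b, -0.35 to 0.15 for miR-188-5p, -0.30 to 0.017 for miR-362-3p and -0.55 to 0.27 for miR-92b. The cause of these changes was not tested. About 46 counts of miR-222 in a lane limit what its values can show.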
